A study of Homo sapiens with 18 samples.

Results

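The baseline transcriptome of control DLD1 cells was described from 3 poly(A) RNA libraries, the replicates 1, 2 and 3 of the guide sgC, out of 18 libraries in the series. DLD1 is an established human line from a colorectal adenocarcinoma. All 3 libraries came from cells with the labelled genotype WT that carried the control CRISPR guide sgC. These cells had been made into a stable population by lentivirus, with 10 µg/ml puromycin added after 48 h, and were grown in DMEM with 5% fetal bovine serum and 100 U/mL penicillin and streptomycin. Libraries were built from 1 µg of total RNA. The libraries of the guides against ZNF692 were not compared here, and only sgC values are given. The labels do not say that the replicates came from separate cultures, so the spread between them may be technical. The third library was labelled poly(A) RNA by its title and molecule, although its description names the ribosomal RNA table.

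The inner lining of the colon is a single layer of epithelial cells that renews from stem cells at the base of pits called crypts. Wnt signals keep the crypt base dividing. Cells that move up the crypt become absorptive colonocytes, mucus-making goblet cells or hormone-making enteroendocrine cells. CDX2 is the homeobox factor that sets intestinal identity, and KRT8 and KRT18 are the paired keratin filaments of simple epithelia. DLD1 is known for mutations in the Wnt regulator APC, in the kinase gene PIK3CA and in the mismatch repair gene MSH6, among others, so the mRNA levels below are those of genes that may carry mutations the counts do not show.

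Levels are counts per 1000000 counts of the library (CPM) after TMM scaling, and levels of different genes are compared per kilobase of the principal transcript (CPM per kb). A gene was called expressed at 1 CPM or more in all 3 libraries, near background under 0.1 CPM in all 3, and low otherwise. Total counts were 19537938, 18146624 and 22111364, so that 1 count was worth 0.0490, 0.0526 and 0.0427 CPM. A gene with 0 counts in all 3 libraries may still have a level of up to 0.0478 CPM (3 counts over the group; counting error only). Of the 47021 genes, 12449 were expressed (26.5%) and 27386 were near background (58.2%). Of the 19844 protein-coding genes, 11554 were expressed (58.2%) and 5015 were near background (25.3%), and these are the shares to hold beside the list counts that follow. The median level was 0.0163 CPM over all genes and 5.63 CPM over protein-coding genes. Protein-coding genes took 99% of the counts. Among expressed genes, 3226 lay under 10 CPM, 6799 between 10 and 100, 2359 between 100 and 1000, and 65 above 1000. The list members nearest to the threshold on its inner side were LRIG1 and ENO3, whose lowest library stood at 1.00 CPM. Just outside it were FCGBP, with a lowest library of 0.982 CPM, and MAF and HOXD8, both with 0.940 CPM.

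A level per kilobase depends on the length used. With all exons of a gene in place of the principal transcript, the 706 expressed genes of the lists had a median of 0.711 times the level, and 178 of them fell below 0.5 times. Large drops among genes named here were those of VEGFA, at 8.22 in place of 99 CPM per kb, CSNK1A1, at 45 in place of 316, GNAS, at 25.5 in place of 172, and RXRA, at 6.11 in place of 36.7. An order by level per kilobase is therefore a description under 1 choice of transcript.

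A near-zero count is not always a silent gene in this table. Among protein-coding genes that share no exon sequence with another gene, 28.0% were near background, against 65.6% of those that share over 90% of their exons with another gene on the same strand. Of 26 genes that share over 90% on the opposite strand alone, 69.2% were near background. ALDOA, the muscle-type aldolase that most dividing cells use in glycolysis, had 2, 0 and 3 counts and shares 82.6% of its exons. ASNS, asparagine synthetase, and PIK3R2, a regulatory subunit of PI3K, had 0 counts with 84.3% and 97.9% shared. CD68, a lysosomal macrophage marker, had 0 counts with 95.3% shared. The overlapping partner genes of ALDOA, ASNS, PIK3R2 and CD68 stood at 2.39, 3.24, 5.88 and 2.24 CPM. The way the counting treated shared reads is not given in the sources used here, so these genes are reported as uncertain. The same holds for genes with near-identical processed copies, among them EEF1A1, GAPDH, KRT8, KRT18 and the ribosomal protein genes.

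The 4 markers of the cells were all expressed in every library. KRT8 (chr12:52897187-52949954, minus strand, GRCh38) had 3043, 3183 and 2874 CPM and ranked 4 of all genes. EPCAM (chr2:47345158-47387601, plus strand), an adhesion molecule of epithelial cells, had 1197, 1252 and 1104 CPM and ranked 47. CDX2 (chr13:27962137-27971139, minus strand) had 221, 226 and 221 CPM and ranked 876. For all of these the 3 libraries lay close together, with coefficients of variation of 5.11%, 6.32% and 1.39%. MYC, the transcription factor that drives growth downstream of Wnt, had 103, 101 and 111 CPM and ranked 2296. Per kilobase the order changed for the transcription factors: MYC stood at 76.8 ± 4.03 CPM per kb, rank 1088, and CDX2 at 54.9 ± 0.763 CPM per kb, rank 1580 (SD, n = 3).

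**Figure D1:**
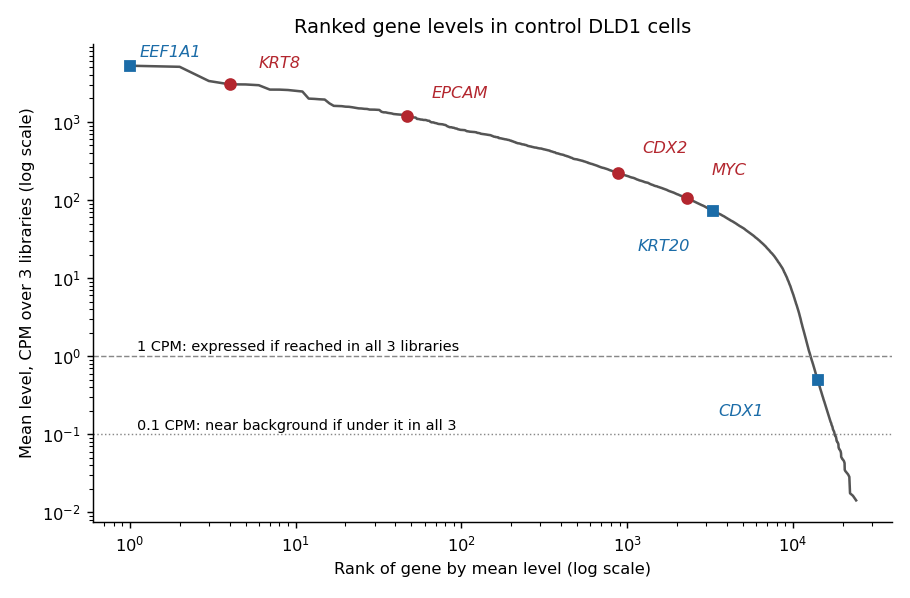
Mean level of each detected gene over the 3 sgC libraries (CPM, log scale, vertical) against its rank (log scale, horizontal). The 4 marker genes are red circles, at ranks 4, 47, 876 and 2296, and other genes named in the text are blue squares; CDX1 falls below the 1 CPM line.

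Counts were spread over many genes, with no gene above 0.550% of the counts pooled over the 3 libraries. The 100 highest genes held 14.6% of the scaled counts, and 1076 genes held 50% of them. EEF1A1, the factor that brings tRNA to the ribosome, led with 5424, 5406 and 4920.2 CPM. PERP, a desmosome-associated membrane protein of epithelia, came next with 5086, 5247 and 4919 CPM. EEF2, which moves the ribosome along the mRNA, had 3345 ± 59.2 CPM. CXCL5, a chemokine that attracts neutrophils, had 2914, 3064 and 2887 CPM and ranked 6. EEF1A1, PERP, EEF2 and CXCL5 each lay within a narrow band over the 3 libraries. The other genes among the 20 highest were KRT8, KRT18, RPS2, RPLP0, the glycolytic enzymes ENO1, GAPDH and PKM, the chaperones HSP90AB1, HSP90AA1 and CANX, the cytoskeletal genes TUBA1B, ACTG1 and ACTB, the cell-death suppressor TMBIM6, the lipid desaturase SCD and the vesicle-coat gene CLTC.

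Per kilobase, ribosomal protein genes moved up. The highest were RPS2 at 3068 ± 316 CPM per kb, RPLP0 at 1932 ± 176 CPM per kb, KRT18 at 1570.5 ± 62.7 CPM per kb, RPL8 at 1481 ± 157 CPM per kb and KRT8 at 1427 ± 72.9 CPM per kb (SD, n = 3). They were followed per kilobase by GAPDH, RPSA, RPS18, the iron-storage gene FTH1 and RPS16. The 3 libraries of RPL8 overlapped those of KRT18 and those of KRT8, while each library of KRT18 lay above every library of KRT8. Of the 88 ribosomal protein genes, 80 were expressed, with a median of 421 CPM, and together they held 4.85% of the scaled counts. Their summed level was 46939, 50534 and 41145 CPM, so the third library was lowest and the second highest.

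Of the 30 transcription factors of the intestinal lineage, 23 were expressed (median 8.31 CPM). The highest per kilobase were EHF, an ETS factor of epithelia, at 152 ± 9.51 CPM per kb, KLF5, a crypt proliferation factor, at 82 ± 3.55 CPM per kb, and ASCL2, a Wnt-driven stem cell factor, at 76.3 ± 12.9 CPM per kb. FOXA1, CDX2 and SOX9 followed at 70.8, 54.9 and 42.2 CPM per kb. The lower end of the list held the closest relative of CDX2. CDX1, the second caudal-type factor of the intestine, had 6, 15 and 9 counts, or 0.489 ± 0.264 CPM, which is low by the rule while CDX2 stood at 223 ± 3.09 CPM. GATA4, which marks the small intestine, had 1, 3 and 1 counts, and ATOH1, the switch for secretory cells, had 0, 2 and 0 counts. GATA5 and SOX2, a factor of the oesophagus and stomach, had 0 counts in all 3. HNF4A, a gut and liver factor, was expressed at 29.98 ± 4.81 CPM.

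Among the keratins, KRT18, KRT8 and KRT19, which are keratins of simple epithelia, were highest. They stood at 1570.5, 1427 and 1074 CPM per kb. KRT20, the keratin of surface colonocytes, had 76, 73.8 and 70.2 CPM. KRT80, not counted here among the keratins of simple epithelia, was at 103 CPM. KRT14 and KRT1, keratins of stratified epithelia such as skin, had 0 counts. KRT6B had 0, 1 and 0 counts, KRT4 had 3, 1 and 0 counts, KRT23 had 2, 2 and 0 counts and KRT6A had 5, 4 and 8 counts. KRT10 and KRT16, also keratins of stratified epithelia, were expressed at 13.9 CPM and 3.36 ± 0.669 CPM. In all, 8 of 18 keratins were expressed, 7 were low and 3 near background.

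Genes of cell junctions were nearly all on. Of 37 genes for epithelial junctions and adhesion, 34 were expressed, with a median of 109.9 CPM. EPCAM led per kilobase at 687 ± 43.4 CPM per kb. It was followed by ST14, a membrane protease, at 197 CPM per kb, JUP, plakoglobin, at 166, CDH1, the E-cadherin gene, at 155, CTNNB1, beta-catenin, at 148, and SPINT1, an inhibitor of ST14, at 142. CDH1 had 753, 689.7 and 825 CPM. The desmosomal cadherins of stratified epithelia were at the bottom, with 0 counts for DSG3 and 3, 3 and 1 counts for DSC3. GRHL1, PKP1 and CTNND1 were expressed at 6.26, 4.82 and 6.998 CPM, and a readthrough gene in the same table overlaps CTNND1, whose level is therefore uncertain.

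Among 21 claudins, the proteins that seal tight junctions, 10 were expressed. CLDN7 stood at 335 ± 25.7 CPM per kb and CLDN4 at 129 ± 7.28 CPM per kb, above CLDN3, CLDN12, CLDN1 and CLDN2, which lay between 12.2 and 49.9 CPM per kb. CLDN17 and CLDN22 had 0 counts, CLDN8, CLDN19 and CLDN20 had 1 count each over the 3 libraries, and CLDN14 had 2. Among 26 integrins, which hold cells to the matrix, 15 were expressed. ITGB1, the shared beta chain, stood at 118 ± 5.13 CPM per kb, and ITGA6 and ITGB4, which pair as the laminin receptor of hemidesmosomes, at 79.5 and 74.4 CPM per kb. ITGAV, ITGA3 and ITGB5 followed at 72.3, 58.2 and 51. The leukocyte chains ITGAL and ITGAD had 1 and 2 counts in all.

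Genes of the enterocyte and colonocyte list, not all of which mark absorptive differentiation, were mostly not expressed. Of 41 enterocyte and colonocyte genes 13 were expressed, and the list median was 0.130 CPM, under that of all protein-coding genes. The highest per kilobase were KRT20 at 42.2 ± 1.67 CPM per kb, CFTR, the chloride channel, at 34.7 ± 2.53 CPM per kb, and MUC13, a membrane mucin, at 25.8 ± 2.87 CPM per kb. CFTR had 216, 195 and 226 CPM. CA2, a carbonic anhydrase, VIPR1, a receptor for a gut peptide, and SLC9A3, a sodium-proton exchanger, stood at 13.2, 18.5 and 9.72 CPM. At the other end 10 members had 0 counts, among them SI, the sucrase-isomaltase gene, FABP2, a fatty acid carrier, APOA4, CA1, CA4 and MS4A12. The set thus ran from 0 counts to the 212 CPM of CFTR.

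Goblet cell and mucin genes were mixed. Of 27 members, 8 were expressed (median 0.299 CPM). AGR2, which folds mucins, had 451, 444 and 406 CPM and stood at 244 ± 13.6 CPM per kb. TFF3 and TFF1, trefoil peptides, were at 37.6 and 8.11 CPM, MUC20 and MUC1 at 47.5 and 11.1 CPM, and MUC5AC, a mucin of the stomach surface, at 36.2, 32.3 and 45.1 CPM. MUC2, the main gel mucin of the colon, had 18, 5 and 17 counts, or 0.624 ± 0.322 CPM. The list members CLCA1, RETNLB, REG1A and MUC16 had 0 counts, and MUC4 had 1, 0 and 0 counts. MUC2 and MUC5AC were chosen for naming after their values were seen.

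Hormone, tuft and Paneth cell genes were mostly at or near 0. Of 24 members 7 were expressed and 12 near background. The hormones GCG, SST and CCK, the enteroendocrine factors NEUROD1 and NEUROG3 and the Paneth defensins DEFA5 and DEFA6 all had 0 counts. AVIL, an actin-binding gene of tuft cells, was the highest at 16 ± 0.184 CPM. PLA2G2A, POU2F3, SYP, INSM1 and TRPM5 lay between 1.33 and 3.11 CPM.

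Crypt stem and progenitor genes were on, with 21 of 24 expressed and a median of 33.2 CPM. TNFRSF19, a Wnt target receptor, stood at 124 ± 1.6 CPM per kb, ASCL2 at 76.3 ± 12.9 CPM per kb, CLU at 72.5 ± 1.54 CPM per kb, and AXIN2, a Wnt feedback gene, at 62.4 ± 1.13 CPM per kb. CD44 and EPHB2, a receptor that places cells along the crypt, were at 46.8 and 23.7 CPM per kb. LGR5, the receptor that marks cycling crypt stem cells, had 16.9, 19.6 and 22.2 CPM. OLFM4, which marks the same cells in human crypts, had 0, 0 and 2 counts, and SMOC2 had 5, 2 and 0 counts. LGR5 was thus at a moderate level in every library and OLFM4 near background in every library.

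**Figure D2:**
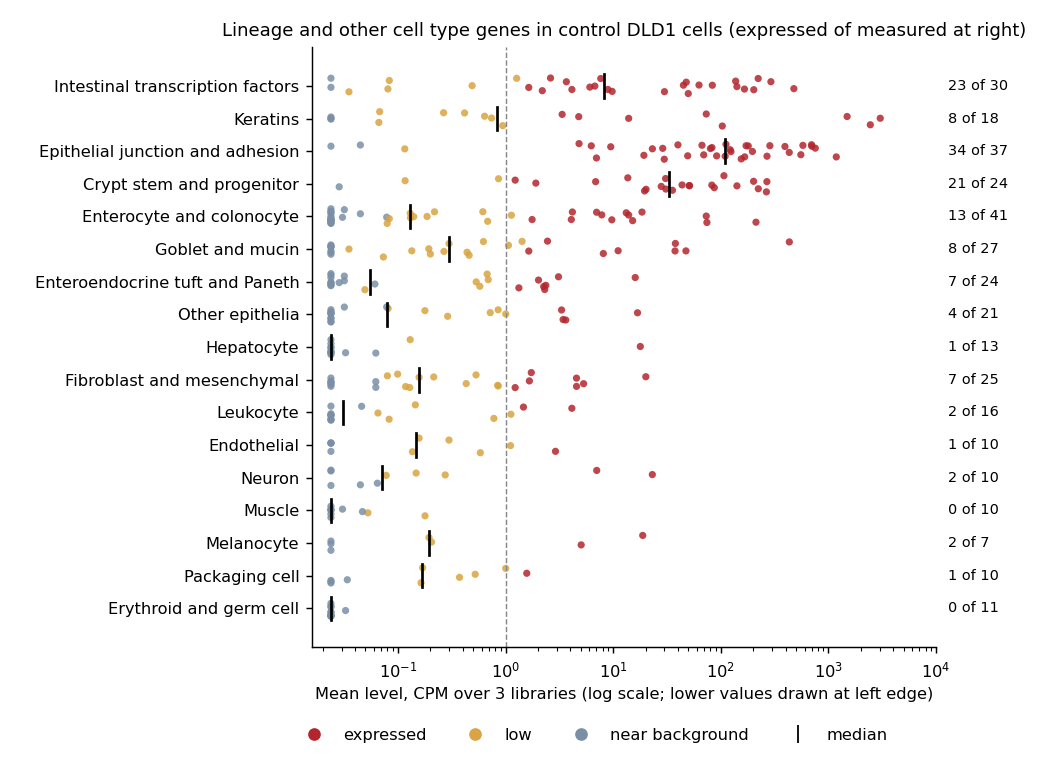
Mean level (CPM over 3 sgC libraries, log scale) of each member of 17 gene lists, 1 row a list, with the number expressed of those measured at the right; black bars are list medians, and values under the left edge are drawn at it. Junction genes (34 of 37) and crypt genes (21 of 24) lie mostly right of the dashed 1 CPM line, and enterocyte, hepatocyte, leukocyte and muscle genes mostly left of it.

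Markers of other cell types were mostly low. Of 25 fibroblast and mesenchymal genes 7 were expressed, with a summed level of 43.5, 44.1 and 40.8 CPM. TAGLN, an actin-binding gene also found in epithelial cells in culture, had 20.2, 20.4 and 19.8 CPM and made up the largest share. SPARC, CDH2, FN1, SNAI1, ACTA2 and PDGFRB lay between 1.23 and 5.31 CPM. The fibroblast-defining COL1A2, COL3A1, LUM, POSTN and FAP and the mesenchymal factor TWIST2 had 0 counts in all 3 libraries. Of 16 leukocyte genes 2 were expressed, CD14 at 4.13 ± 0.0708 CPM and CD8A at 1.47 ± 0.185 CPM, while CD3D, CD4, MS4A1 and TYROBP had 0 counts (summed list level 8.77, 7.21 and 7.65 CPM). Of 10 endothelial genes 1 was expressed, VWF at 2.91 ± 0.762 CPM, and KDR, TIE1 and EMCN had 0 counts (5.73, 4.16 and 5.77 CPM summed). Of 10 genes that mark the embryonic kidney line in which lentivirus is usually packaged 1 was expressed, SIX2 at 1.58 ± 0.513 CPM, and NEFM and SYT4 had 0 counts (3.72, 4.47 and 3.33 CPM summed).

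Genes of more distant lineages were also mostly near background. None of the 10 muscle genes and none of the 11 erythroid and germ cell genes was expressed, and the globins HBB, HBA1 and HBG1 had 0 counts. Of 13 hepatocyte genes 1 was expressed, SERPINA1, the antitrypsin gene, at 17.9 ± 1.13 CPM, while ALB had 2, 0 and 0 counts and TTR and APOA2 had 0. Of 10 neuronal genes 2 were expressed, MAP2 at 23.1 ± 2.08 CPM and GAD1 at 7.04 ± 0.333 CPM. Of 7 melanocyte genes 2 were expressed, MITF at 18.8 ± 0.312 CPM and PMEL at 5.05 ± 0.495 CPM. Of 21 genes of other epithelia 4 were expressed. The highest member, not reported here by name, had a mean of 16.8 CPM. The trypsinogen PRSS1, the bladder gene UPK2 and the kidney and thyroid factor PAX8 lay between 3.32 and 3.63 CPM. The oestrogen receptor gene ESR1, the lung gene SFTPC and the insulin gene INS had 0 counts.

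One library carried more counts of a few genes that were close to absent in the others. VIM, the intermediate filament of mesenchymal cells, had 25, 3 and 5 counts. In replicate 1, 11 genes with at least 10 counts stood 5 times or more above both other libraries, against 1 gene in replicate 2 and 2 in replicate 3. The highest of the 11 was the histone gene H2AC18 with 32, 5 and 7 counts, or 1.57 CPM in replicate 1. They included IRF4 with 25, 0 and 1 counts, IKZF3 with 16, 0 and 1, CD28 with 13, 0 and 1 and SRGN with 12, 0 and 1, which are known from lymphoid and other blood cells, and the cancer-testis gene MAGEA4 with 12, 0 and 0. TNFRSF17 and POU2AF1, genes of B cells and plasma cells, had 9, 0 and 0 and 7, 0 and 0 counts. PTPRC, the common leukocyte antigen, had 4, 0 and 0 counts. Besides H2AC18, each gene named in this paragraph was at most 1.22 CPM in replicate 1. The origin of these counts was not tested, and the genes in this paragraph were named after their values were seen.

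HOX genes, which record position along the body, were on in the HOXA and HOXB clusters. HOXA genes summed to 322, 314 and 329 CPM, and HOXB genes to 409, 400.2 and 427 CPM, while HOXC genes summed to 8.62, 6.21 and 5.85 CPM and HOXD genes to 12.7, 10.9 and 11 CPM. Of the 11 HOXA genes 9 were expressed, of 10 HOXB genes 8, of 9 HOXC genes 3 and of 9 HOXD genes 3. HOXC5, HOXD3 and HOXD4, all low, share most of their exon sequence with another gene on the same strand, so their levels are uncertain. The HOXC and HOXD counts and sums carry this limit. No HOXA or HOXB gene shares most of its exons in this way. In HOXA the summed level lay in the posterior genes: paralogs 9 to 13 had 286, 280.4 and 293 CPM, and paralogs 1 to 8 had 36.1, 33.1 and 35.2 CPM. HOXB was more even, with 192, 190 and 205 CPM in its 2 genes of paralogs 9 to 13 and 217, 210 and 221 CPM in its 8 genes of paralogs 1 to 8. HOXA13, at the posterior end of the cluster, had 138, 134 and 146 CPM, and HOXA9, HOXA10 and HOXA11 had 63.5, 49.7 and 34.1 CPM. Per kilobase HOXA9 stood at 30.8 ± 1.11 CPM per kb and HOXA13 at 27.7 ± 1.25 CPM per kb, and with all-exon lengths the order was the other way, at 21 and 27.4 CPM per kb. HOXA4 and HOXA2 were low, with 3, 5 and 5 counts and 9, 8 and 9 counts.

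In HOXB the highest gene per kilobase was HOXB9 at 65.9 ± 3.07 CPM per kb, with 167, 164 and 179 CPM. HOXB6 had 89.4 CPM, HOXB8 42.3, HOXB3 36.2, HOXB7 26.3, HOXB13 25.8, HOXB5 15 and HOXB4 6.45 CPM. At the 3′ end of the cluster HOXB2 had 5, 12 and 17 counts and HOXB1 had 0 in all 3 libraries. The 3 expressed HOXC genes, HOXC10, HOXC6 and HOXC11, lay between 1.25 and 2.45 CPM, and HOXD9, HOXD11 and HOXD13 between 1.86 and 4.65 CPM. HOTTIP, the noncoding RNA beside HOXA13, was expressed at 29.4 ± 0.764 CPM, and HOTAIR, from the HOXC cluster, had 11, 7 and 7 counts.

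**Figure D3:**
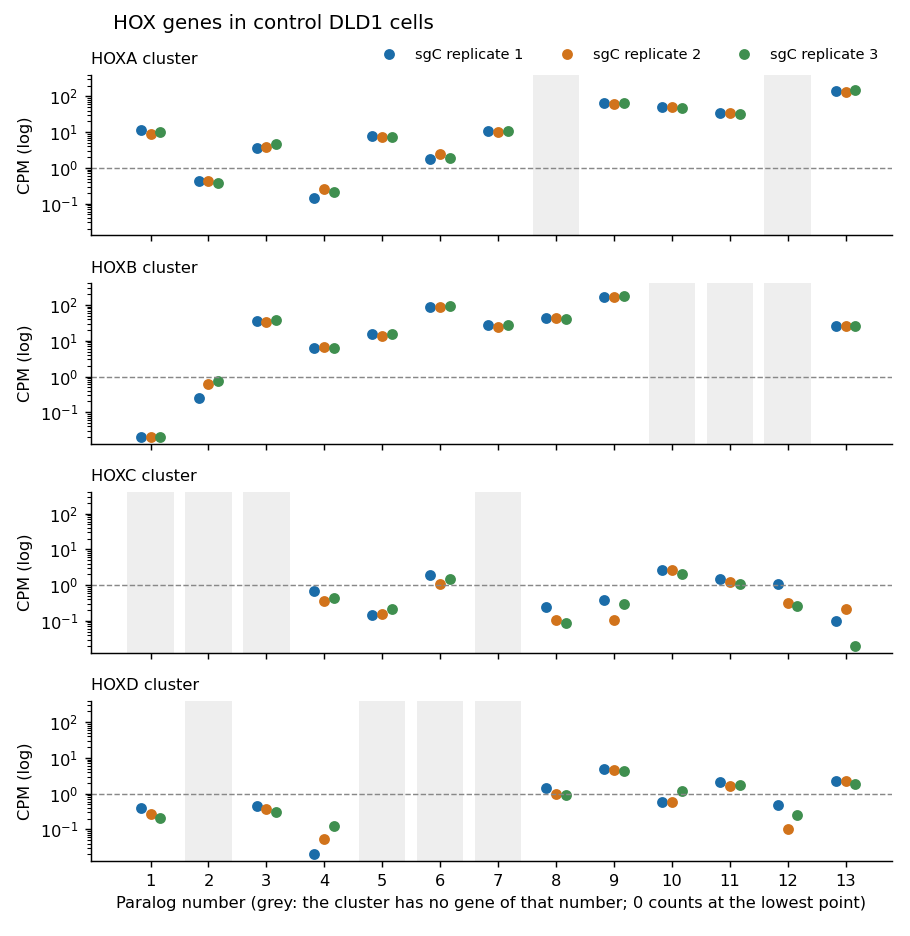
Level of each HOX gene (CPM, log scale) in the 3 sgC libraries, 1 panel a cluster, by paralog number from anterior (1) to posterior (13). Points of the 3 libraries lie together for the expressed HOXA and HOXB genes, where HOXA13 and HOXB9 are highest by CPM. They lie further apart for HOXB2 and HOXA4, which were low. HOXC and HOXD genes lie near or under the dashed 1 CPM line.

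Of 48 nuclear receptors, factors switched by hormones and lipids, 27 were expressed (median 2.59 CPM). The highest per kilobase were NR2F2 at 45.3 ± 0.955 CPM per kb, ESRRA at 43.5 ± 2.53 CPM per kb, NR1D2, a clock repressor, at 40.5 ± 1.43 CPM per kb and NR1H2, a sterol sensor, at 38.1 ± 1.28 CPM per kb. The place of ESRRA changed between libraries. Within each library NR2F2 lay above NR1D2, and NR1D2 above NR1H2. RXRA, the shared partner of many of them, and NR2F6 followed at 36.7 and 36.7 CPM per kb. With all-exon lengths RXRA stood at 6.11 CPM per kb and NR2F6 at 32.9, so the place of RXRA depends on the length used. Besides ESR1, the xenobiotic sensor NR1I2, the bile acid sensor NR1H4, ESRRB and NR2E1 had 0 counts. The glucocorticoid receptor NR3C1, named after its value was seen, was low at 16, 21 and 11 counts.

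All 40 colorectal cancer driver genes were expressed (median 63.4 CPM). Of these, 2, IGF2 among them, share most of their exon sequence with another gene on the same strand, so their levels are uncertain. Among the highest per kilobase were GNAS, a G-protein subunit, at 172 ± 6.39 CPM per kb, CTNNB1 at 148 ± 2.79 CPM per kb, KLF5 at 82 ± 3.55 CPM per kb and MYC at 76.8 ± 4.03 CPM per kb. SMAD4, which carries TGF-beta signals, had 64.3, 62.8 and 66.7 CPM. The kinase gene PIK3CA had 29.6, 26.7 and 33.8 CPM. APC, the scaffold that tags beta-catenin for destruction, had 10.7, 8.53 and 14.9 CPM, which spans a wider band relative to its mean than SMAD4 and PIK3CA.

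At the lower end of the driver list stood 3 genes under 5 CPM. B2M, the light chain that carries class I antigens to the surface, had 1.71, 1.58 and 1.54 CPM. IGF2, a growth factor, had 1.91, 1.58 and 1.54 CPM, and its exons overlap another gene on the same strand, so its level is uncertain. AMER1, an APC-binding protein, had 3.33, 4.16 and 4.57 CPM. The libraries of each lay together.

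**Figure D4:**
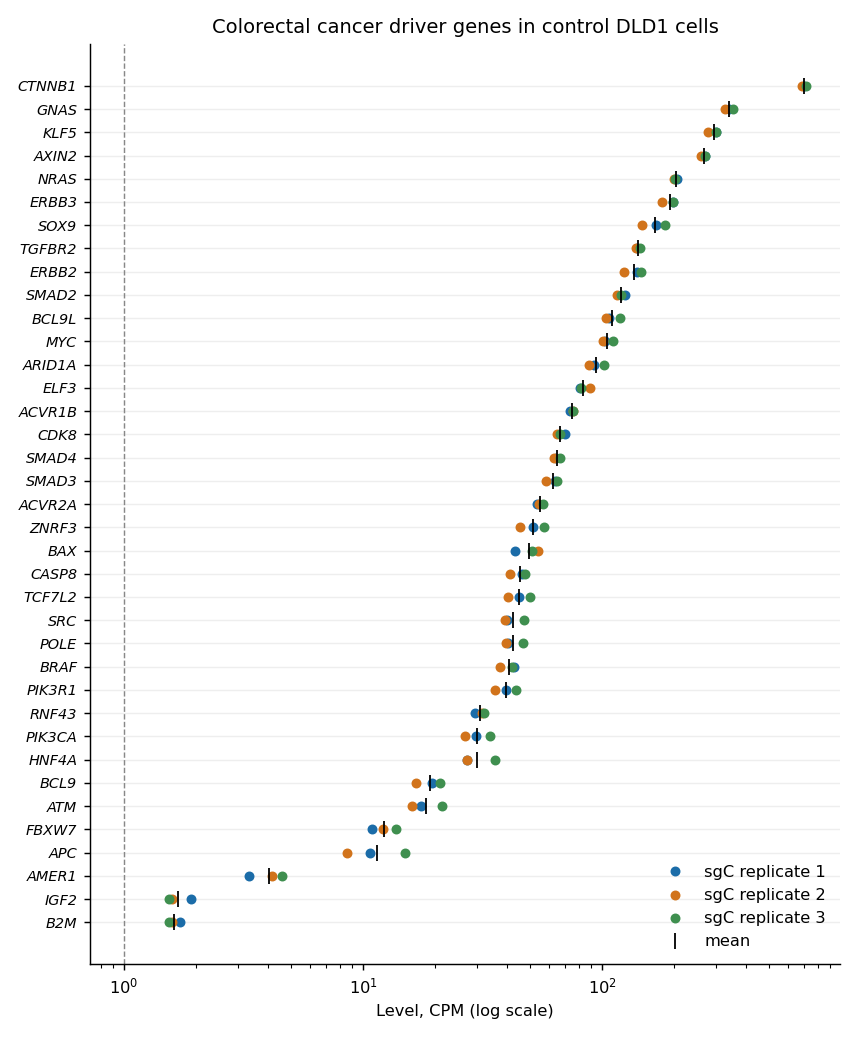
Level (CPM, log scale) of 37 of the 40 colorectal cancer driver genes in the 3 sgC libraries (coloured points) with their mean (black tick), ordered by mean. Each plotted gene lies right of the dashed 1 CPM line, with CTNNB1 on top at a mean of 701 CPM and B2M at the bottom at 1.61 CPM.

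Mismatch repair genes correct replication errors. The list of 19 also holds genes of other DNA repair and of meiosis, such as MUTYH and MSH5, and 16 were expressed (median 42.2 CPM). PCNA, the replication clamp, stood at 313 ± 34.2 CPM per kb. MSH6, which binds single-base mismatches, had 6.56, 9.32 and 6.88 CPM, or 1.01 ± 0.202 CPM per kb. MSH3, which binds larger loops, had 59.5, 52.5 and 59.2 CPM, or 13.9 ± 0.973 CPM per kb. Per kilobase MSH6 thus lay below MSH3 in every library. PMS2, an endonuclease of the pathway, had 19.7, 16.3 and 21.5 CPM, PMS1 29.8 CPM, MLH3 16.7 CPM, and the nuclease EXO1 50.8 CPM. MUTYH, a glycosylase for oxidised bases, had 1, 1 and 1 counts, and MSH5, a meiotic gene that shares exons with a neighbour, 2, 1 and 2 counts.

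Wnt ligands bind Frizzled and LRP receptors, which stops the destruction of beta-catenin. Of 25 genes for Wnt ligands, R-spondins and their export, 10 were expressed. WLS, which carries Wnts to the surface, had 293, 272 and 285 CPM, and PORCN, which adds their lipid, had 17, 18.1 and 17 CPM. The ligands with the highest levels per kilobase were WNT10A at 7.66 ± 1.24 CPM per kb, WNT5B at 6.15 ± 0.435 CPM per kb and WNT5A at 1.74 ± 0.144 CPM per kb. WNT7B, WNT3, WNT10B, WNT16 and WNT11 lay between 1.45 and 6.26 CPM. WNT1, WNT2, WNT6, WNT8A, WNT9B, RSPO1 and RSPO3 had 0 counts, and RSPO2 and WNT3A had 1, 1 and 1 counts and 0, 1 and 0 counts.

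Receptors were on for 15 of 18. LRP5 stood at 33.2 ± 1.66 CPM per kb, FZD6 at 26.8 ± 0.731 CPM per kb, FZD7 at 26 ± 0.852 CPM per kb and FZD2 at 21.5 ± 1.39 CPM per kb. Within each library FZD6 lay slightly above FZD7, at 30.8% ± 0.195 and 29.9% ± 0.109 of the level of the 10 Frizzled genes. FZD7 was first of them when all exons were used for length, so the order of FZD6 and FZD7 depends on the length used. LRP6, RYK, ROR1, LGR6, LGR4, LGR5, FZD4, FZD5, FZD3, FZD1 and FZD8 were also expressed, from 3.34 to 110.2 CPM, while FZD9, ROR2 and FZD10 were low. Of 22 transduction genes 21 were expressed. CSNK1A1, the kinase that primes beta-catenin, stood at 316 ± 11.5 CPM per kb, CTNNB1 at 148 ± 2.79 CPM per kb, AXIN2 at 62.4 ± 1.13 CPM per kb and GSK3B at 46.5 ± 3.49 CPM per kb.

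Of the nuclear partners of beta-catenin, LEF1 stood at 14.7 ± 0.951 CPM per kb, TCF7L2 at 11.8 ± 1.27 CPM per kb, TCF7 at 5.59 ± 0.548 CPM per kb and TCF7L1 at 0.574 ± 0.0862 CPM per kb. LEF1 made up 45% ± 1.33 of the level of these 4 genes. Among 22 inhibitors and targets 14 were expressed. CCND1, cyclin D1, had 333, 302 and 356 CPM, APCDD1 53.5 CPM, ZNRF3 51.2 CPM, NKD1 20.7 CPM and SP5 20.6 CPM, all known Wnt targets. NOTUM, which strips the lipid from Wnts, had 3.28 CPM. Of the DKK and SFRP genes and WIF1, most of them known as secreted inhibitors of Wnt signalling, 1 alone was expressed. It was DKK3, a less typical member of the DKK genes, at 1.64 ± 0.169 CPM. SFRP4 had 10, 15 and 16 counts. DKK2 and DKK4 had 0 counts, SFRP1, SFRP2 and WIF1 1 count each, and SFRP5 0, 3 and 0 counts. DKK1 had 7, 5 and 16 counts.

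ERBB receptors are growth-factor receptor kinases, and their ligands were led by a few genes. EREG, epiregulin, had 940.2, 868 and 902 CPM, AREG, amphiregulin, 170.1, 169.8 and 148 CPM, and TGFA 209, 207 and 209.5 CPM. Per kilobase EREG made up 50.5% ± 1.63 of the 11 ligand genes and AREG 33.9% ± 1.87. BTC and HBEGF were expressed at 23.8 and 7.5 CPM. EGF had 15, 13 and 14 counts, NRG1 1, 0 and 1 counts, EPGN 0, 1 and 2 counts and NRG3 0 counts, so 5 of the 11 ligands were expressed. Of the 4 receptors ERBB3 stood at 32.3 ± 1.87 CPM per kb, ERBB2 at 30.01 ± 2.48 CPM per kb and EGFR at 7.55 ± 1.23 CPM per kb, and ERBB4 had 7, 2 and 3 counts.

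All 21 genes of the RAS and MAP kinase cascade were expressed (median 86.1 CPM). NRAS had 206, 199 and 202 CPM and HRAS 56.5, 61.6 and 50.3 CPM. Among the highest per kilobase were MAPK3 at 55.3 ± 0.625 CPM per kb, RPS6KA1, a kinase at the end of the cascade, at 54 ± 1.27 CPM per kb and MAP2K2 at 49.6 ± 0.679 CPM per kb. No order is given within the RAS, RAF, MEK and ERK genes, because the leading gene of each changed with the length used. Of 23 feedback and target genes 22 were expressed. IER3 stood at 122 ± 4.9 CPM per kb, CCND1 at 76.7 ± 6.2 CPM per kb, DUSP6, the phosphatase of ERK, at 32.7 ± 1.9 CPM per kb, EPHA2 at 24.8 ± 1.47 CPM per kb, SPRED2 at 23.4 ± 2.33 CPM per kb and PHLDA1 at 21.4 ± 1.22 CPM per kb. DUSP6 had 153, 141 and 137 CPM. The immediate-early gene FOS had 3.28, 3.05 and 2.78 CPM, and SPRED3 was low with 3, 2 and 5 counts.

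In the PI3K and mTOR pathway, which couples growth factors to protein synthesis, 26 of 31 genes were expressed (median 34.6 CPM). RHEB, the switch of mTOR, stood at 88.4 ± 7.25 CPM per kb, MLST8 at 44.4 ± 2.28 CPM per kb, AKT1 at 30.2 ± 0.942 CPM per kb and AKT2 at 21.8 ± 1.36 CPM per kb. MTOR had 136, 124 and 149 CPM. PIK3CB made up 75.5% ± 0.970 of the level of the catalytic subunits PIK3CA, PIK3CB and PIK3CD per kilobase. PIK3CG, a leukocyte subunit, had 1, 0 and 0 counts, IRS4 3, 0 and 0 counts and IGF1 12, 8 and 17 counts.

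TGF-beta and BMP genes were expressed for 30 of 36 (median 54.8 CPM). BMP4, a ligand that favours differentiation in the gut, had 815, 821 and 791 CPM, or 422 ± 8.22 CPM per kb. GDF15, a stress-induced ligand, had 477, 494 and 432 CPM. The inhibitor-of-differentiation genes ID1, ID3 and ID2, which BMP signals switch on, stood at 291, 192 and 119 CPM per kb, and TGFB1 at 35.6. ID1 had 305, 298 and 263 CPM. Several BMP blockers stood at or near the bottom of the list, with 0 counts for NOG, 2, 3 and 4 counts for GREM1 and 7, 4 and 7 counts for CHRD. TGFBR2, the receptor often lost in mismatch-repair-deficient tumours, had 140.0, 139 and 143 CPM.

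Notch genes were expressed for 14 of 19 (median 13.1 CPM). The target HES1 stood at 27.2 ± 1.78 CPM per kb, the ligand JAG1 at 17.7 ± 1.7 CPM per kb, HES4 at 14.5 ± 3.6 CPM per kb, the DNA-binding factor RBPJ at 12.4 ± 0.647 CPM per kb, and NRARP and the receptor NOTCH2 at 12.1 and 11.3 CPM per kb. NOTCH2 made up 79.8% ± 1.02 of the 4 receptors. HES5 had 0 counts, HEY2 0, 3 and 2 counts and HEY1 10, 3 and 6 counts. Hedgehog genes were mostly low, with 4 of 11 expressed: PTCH1 at 42.8 ± 4.04 CPM, SUFU at 26.3 ± 2.26 CPM, HHIP at 7.58 ± 0.764 CPM and SHH at 2.61 ± 0.438 CPM. The transducer SMO had 18, 19 and 17 counts and the factor GLI1 5, 5 and 8 counts.

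Hippo genes, which restrain organ size, were expressed for 16 of 19 (median 36.1 CPM). AJUBA stood at 69.5 ± 1.23 CPM per kb, MOB1A at 62.1 ± 0.701 CPM per kb, TEAD1 at 46.6 ± 5.32 CPM per kb and YAP1, the effector, at 31 ± 3.45 CPM per kb. The YAP1 targets ANKRD1 and CCN2 had 0.746 and 6.81 CPM. STK3 had 3, 0 and 4 counts and VGLL1 2, 0 and 2 counts.

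All 13 genes of the MYC and MXD network were expressed (median 24.6 CPM). MYC had 76.8 ± 4.03 CPM per kb, MLX 37.7 ± 1.71 CPM per kb and MAX, the obligate partner of MYC, 30.1 ± 0.957 CPM per kb. MYC made up 82% ± 0.991 of the level of MYC, MYCN and MYCL, which had 14.1 CPM for MYCN and 19.3 for MYCL. MLXIPL was the lowest at 2.44 ± 0.372 CPM. In cell cycle and checkpoint genes 27 of 29 were expressed (median 38.3 CPM), with CCNB1 at 169 ± 5.68 CPM per kb, CDK4 at 119 ± 5.47 CPM per kb, CCNA2 at 93.9 ± 0.878 CPM per kb and CCND1 at 76.7 ± 6.2 CPM per kb. CCND1 made up 74.7% ± 1.86 of the D cyclins, and CCND2 had 16, 2 and 7 counts, highest in replicate 1. CDKN2A, the locus of p16, had 1.81, 3.11 and 2.39 CPM, and TP63 had 2, 1 and 2 counts.

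Apoptosis genes were expressed for 28 of 31 (median 37.3 CPM). The survival genes BIRC5, BCL2L1 and MCL1 stood at 92.5, 73.1 and 69.5 CPM per kb, and the death genes BIK, BAX and PMAIP1 at 72.1, 62.1 and 40.5. BCL2, the founding survival gene, had 6.51, 9.53 and 8.16 CPM, or 1.08 ± 0.202 CPM per kb. BCL2A1, a survival gene of blood cells, had 0 counts, HRK 0, 1 and 2 counts and FASLG 3, 2 and 4 counts.

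Of 27 antigen presentation genes 20 were expressed (median 9.71 CPM). The class I heavy chains HLA-C and HLA-B stood at 402 ± 15.5 CPM per kb and 60.9 ± 3.13 CPM per kb. HLA-B had 94.5, 98.9 and 89.2 CPM, and reads of these similar genes may have been divided unevenly. PSMB8, of the immunoproteasome, stood at 130.2 ± 9.95 CPM per kb, TAPBP at 106 ± 10.6 CPM per kb, and HLA-E, a nonclassical heavy chain, had 234 ± 10.3 CPM. B2M, their shared light chain, was at 0.944 ± 0.0541 CPM per kb, far under HLA-C and HLA-B in each of the 3 libraries. The class II genes HLA-DQA1, HLA-DQB1, HLA-DRB1, HLA-DPA1 and HLA-DRA had 0 to 10 counts over the 3 libraries.

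Innate sensing genes were expressed for 15 of 30 (median 1.59 CPM). IFNGR1, a receptor chain for interferon gamma, had 624, 622 and 579 CPM and stood at 284 ± 11.9 CPM per kb. IRF3, STING1, IRF7, IFNGR2 and IFNAR1 stood between 13.8 and 42.7 CPM per kb. The interferons IFNG, IFNA1 and IFNL1 and the receptor TLR8 had 0 counts. DDX58, the RIG-I sensor, had 1, 0 and 0 counts, AIM2 1, 0 and 0 counts, and PYCARD, the inflammasome adaptor, 0, 1 and 0 counts. IFNAR2 had 8, 20 and 17 counts and shares 67.8% of its exons with a gene at 39.8 CPM, so its level is uncertain.

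Of 27 cytokine and chemokine genes 17 were expressed (median 15.9 CPM). CXCL5 stood at 1164 ± 37.5 CPM per kb, VEGFA at 99 ± 3.53 CPM per kb, CXCL16 at 51.9 ± 2.42 CPM per kb, CXCL3 at 51 ± 5.19 CPM per kb, CXCL1 at 42.7 ± 4.14 CPM per kb and CCL20 at 41.7 ± 2.83 CPM per kb. CXCL5 lay above every other member per kilobase in each library, with either length. CXCL8, another neutrophil chemokine of the same family, named after its value was seen, had 71.5, 70.01 and 67.4 CPM. IL6 and CSF3 had 0 counts, and TSLP, CCL5 and CXCL10 had 1, 0 and 1 counts, 0, 2 and 0 counts and 2, 3 and 1 counts.

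Several steps of glucose use were led by 1 gene. Of 35 genes of glucose transport and glycolysis 22 were expressed (median 32.2 CPM). GAPDH stood at 1335 ± 69.3 CPM per kb, ENO1 at 1106 ± 69.3 CPM per kb, PKM at 727 ± 33.6 CPM per kb, TPI1 at 670.3 ± 34.2 CPM per kb, LDHA at 647 ± 56.6 CPM per kb and PGAM1 at 437 ± 29.7 CPM per kb. SLC2A1, the glucose carrier of dividing cells, had 1007, 1001 and 909.9 CPM and made up 96.9% ± 0.225 of the level per kilobase of the 5 SLC2A carriers in the list. SLC5A1, the sodium-coupled glucose carrier, is not in that share and stood at 2.75 ± 0.261 CPM per kb, against 265 ± 14.8 CPM per kb for SLC2A1. HK1 made up 81.7% ± 0.426 of the hexokinases, LDHA 86% ± 0.314 of the lactate dehydrogenases, of which LDHB shares exons with a neighbour and is uncertain, and SLC16A1 82.1% ± 1.72 of the 2 lactate carriers. No order is given for the phosphofructokinases, where the leading gene changed with the length used. The liver carrier SLC2A2, the muscle enzyme PGAM2 and the testis enzyme PGK2 had 0 counts, and the liver enzyme PKLR had 0, 0 and 1 counts. PGAM2 shares 100% of its exon sequence on the opposite strand, and the strand setting of the counting is not given, so its level is uncertain.

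Of 13 genes for glucose synthesis and glycogen 8 were expressed (median 35.6 CPM). PCK2, the mitochondrial carboxykinase, had 308, 198 and 254 CPM, lowest in replicate 2, and PCK1, its cytosolic form in liver and gut, had 5, 2 and 1 counts. PYGB, brain-type glycogen phosphorylase, stood at 50.8 ± 5.2 CPM per kb, G6PC3 at 48.3 ± 2.74 CPM per kb, and FBP1 at 26.4 ± 0.945 CPM per kb. G6PC1 and GYS2, liver forms, had 0 counts, though GYS2 shares exons with a neighbour.

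Amino acid and one-carbon genes had a high median of 197 CPM, with 22 of 23 expressed and ASNS uncertain as above. SLC3A2 and SLC7A5, the chains of the large neutral amino acid carrier, stood at 506 ± 10.5 CPM per kb and 234 ± 14.2 CPM per kb. PSAT1, of serine synthesis, had 977, 894 and 904 CPM, or 423 ± 20.7 CPM per kb. SLC1A5, the glutamine carrier, stood at 324 ± 7.32 CPM per kb, ASS1, of arginine synthesis, at 202 ± 18.2 CPM per kb and SHMT2, of mitochondrial folate use, at 189 ± 12.9 CPM per kb.

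Of 27 drug transport and xenobiotic genes 16 were expressed (median 3.54 CPM). GSTP1, a glutathione transferase, stood at 561 ± 49.2 CPM per kb, NQO1, a quinone reductase, at 132 ± 9.67 CPM per kb and TYMS, the target of fluorouracil, at 129 ± 7.83 CPM per kb. ABCB1, the multidrug efflux pump, had 238, 254 and 278 CPM, or 53.8 ± 4.25 CPM per kb. ABCC4 and CYP1B1 followed at 29 and 21.4 CPM per kb. DPYD, which breaks down fluorouracil, had 0, 1 and 1 counts and TYMP 1, 0 and 0 counts. CYP3A4, GSTA1 and UGT1A10 had 0 counts, though UGT1A10 shares exons with the other UGT1A genes.

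Cancer-testis genes, normally confined to germ cells, were expressed for 3 of 22, MAGEA3 at 4.01 ± 0.325 CPM, MAGEA6 at 3.29 ± 0.509 CPM and PRAME at 2.27 ± 0.412 CPM. MAGEA3 and MAGEA6 are near-identical copies and their reads may have been divided between them. SSX1, SSX2, GAGE1 and CTAG1B had 0 counts. The list summed to 14.1, 10.1 and 10.1 CPM, highest in replicate 1, where MAGEB1 had 5 counts and CTAG2 had 4 against 0 in the other libraries. Of 26 long noncoding RNAs, a list of well-known names, 23 were expressed (median 26.3 CPM). Over all genes of such classes 3.09% of lincRNAs, 6.11% of antisense RNAs and 15.1% of processed transcripts were expressed. NORAD stood at 100.3 ± 3.31 CPM per kb, and the host genes of small nucleolar RNAs SNHG6, GAS5, SNHG8 and SNHG5 at 75.2, 73.5, 50.5 and 38.4 CPM per kb. H19, an imprinted RNA, named after its value was seen, had 71.8, 54.7 and 63.3 CPM. MEG3 had 0 counts, and MIR17HG 5, 5 and 13 counts.

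Promoter sequence, which played no part in ranking the genes, was set beside the level classes. A RefSeq promoter window of 300 bases (250 before and 50 after the start, GRCh38.p14) was matched within 500 bases of the GENCODE start for 13763 of 19819 protein-coding symbols (69.4%). The CpG ratio is the number of CpG pairs over that expected from the C and G content, and 0.6 or more is called high. The 4 stretches below are the upstream 250 bases of 1 gene of each kind, with every CpG in capitals, shown because they span the 4 combinations of level and CpG content. PERP (chr6:138107420-138107669, minus strand) was expressed with 34 CpG pairs in the stretch. CXCL5 (chr4:73998678-73998927, minus strand) was expressed with 6. TWIST2 (chr2:238847835-238848084, plus strand) had 0 counts with 26. SI (chr3:165078497-165078746, minus strand) had 0 counts with 0 CpG pairs.
PERP: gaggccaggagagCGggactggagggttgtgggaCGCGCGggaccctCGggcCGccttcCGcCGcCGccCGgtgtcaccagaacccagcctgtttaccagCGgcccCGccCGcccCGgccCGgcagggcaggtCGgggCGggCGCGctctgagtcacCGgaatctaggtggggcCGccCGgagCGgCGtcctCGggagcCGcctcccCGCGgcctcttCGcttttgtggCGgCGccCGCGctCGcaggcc
CXCL5: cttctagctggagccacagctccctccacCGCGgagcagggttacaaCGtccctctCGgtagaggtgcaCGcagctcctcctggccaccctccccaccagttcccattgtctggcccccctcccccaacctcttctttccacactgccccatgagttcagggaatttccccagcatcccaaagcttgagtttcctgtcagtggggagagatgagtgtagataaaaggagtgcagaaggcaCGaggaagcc
TWIST2: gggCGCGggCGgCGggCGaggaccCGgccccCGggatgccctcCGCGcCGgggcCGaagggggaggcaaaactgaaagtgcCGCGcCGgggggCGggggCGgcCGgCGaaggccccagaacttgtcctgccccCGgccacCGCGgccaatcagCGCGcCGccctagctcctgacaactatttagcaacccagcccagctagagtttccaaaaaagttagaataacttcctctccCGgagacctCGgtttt
SI: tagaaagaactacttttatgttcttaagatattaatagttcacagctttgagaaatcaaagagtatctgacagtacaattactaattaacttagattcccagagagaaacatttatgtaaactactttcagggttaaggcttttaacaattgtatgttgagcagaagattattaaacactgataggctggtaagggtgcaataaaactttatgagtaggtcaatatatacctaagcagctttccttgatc

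Most expressed genes had a high CpG ratio. The share was 87.7% of 8586 expressed genes, 54.1% of 2037 low genes and 26.0% of 3140 near-background genes, against 68.6% of all 13763 matched. Within expressed genes it was 77.0% at 1 to 10 CPM, 89.3% at 10 to 100 CPM, 93.0% at 100 to 1000 CPM and 98% above 1000 CPM, where CXCL5 was the 1 of 50 without it, with a ratio of 0.372. Read the other way, 79.7% of genes with a high ratio were expressed and 8.64% were near background, against 24.5% and 53.8% of genes under 0.6. Genes are not replicates, and these shares are a description with no test.

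Enterocyte genes followed the CpG-poor pattern in part. Of their 15 matched near-background members 2 had a high ratio, ANPEP and MTTP, and of their 11 matched expressed members 3 did. By contrast, 6 of the 8 matched near-background Wnt ligands had a high ratio, among them WNT1, WNT2 and WNT6. EREG, at 903 CPM, had a ratio of 0.486, and AGR2, at 434 CPM, one of 0.420.

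Short motifs were counted in the same windows on both strands. The TATA box letters TATAAA were in 5.09% of expressed and 20.3% of near-background promoters, against 9.64% of all. GGGCGG, the GC box, was in 74.4% and 30.4%, against 61.5% of all. The ETS letters CCGGAAG were in 20.9% and 3.66% (15.0% of all), and the E-box CACGTG in 10.2% and 5.99% (8.81% of all). TATAAA was in 9 of the 50 matched promoters of genes above 1000 CPM (18%). CCAAT was in 37.0% and 39.2% (37.0% of all). Motifs rich in CpG overlap with the CpG content itself. A match is a description of these letters and not of a bound site.

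**Figure D5:**
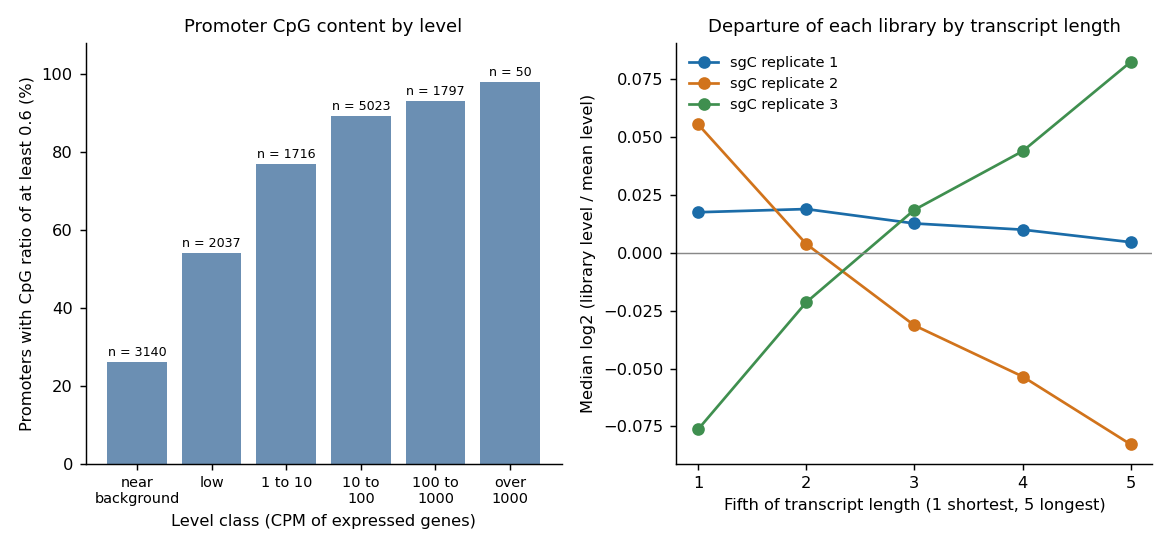
Left, share of promoters with a CpG ratio of at least 0.6 (bars, %) by level class, with the number of promoters above each bar; it runs from 26.0% near background to 98% over 1000 CPM. Right, median log2 of library level over the mean of the 3 libraries, by 5 classes of transcript length, where sgC replicates 2 and 3 slope in opposite directions.

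The 3 libraries lay close together. The common biological coefficient of variation, the spread beyond counting error, was 6.55% over 13607 genes, and for pairs of libraries it was 5.13% for replicates 1 and 2, 5.86% for 1 and 3 and 8.16% for 2 and 3. Among 7576 genes with a mean of at least 20 CPM the median coefficient of variation was 5.37%, and 20 genes exceeded 20%. The most variable was the noncoding gene CH507-513H4.3, with 31.5, 127 and 50.9 CPM, highest in replicate 2. CRLS1, cardiolipin synthase, had 35.9, 34.2 and 17.3 CPM, lowest in replicate 3. The noncoding gene RP11-596C23.6 had 23.1, 43.2 and 26.3 CPM, highest in replicate 2, and C4orf48 23.4, 25.4 and 13 CPM, lowest in replicate 3. PRSS2, NIBAN1, CHCHD10, EBPL, ANTKMT and PGP followed, with coefficients from 27.7% down to 23.9%. The steadiest were NDC80, ORC2, FGD5-AS1, ATP6V1H and MEPCE, from 0.0200% to 0.166%, below what counting error alone gives for 1 gene, so their order carries no information.

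The difference between replicates 2 and 3 moved with transcript length. In the shortest 1 of 5 equal classes of expressed protein-coding genes, 344 to 1871 bases, the median departure from the mean of the 3 libraries on the log2 scale was 0.02, 0.06 and -0.08 in replicates 1, 2 and 3. In the longest class, 5513 to 34526 bases, it was 0.00, -0.08 and 0.08. The 80 expressed ribosomal protein genes, with transcripts of 344 to 7686 bases, departed by 0.02, 0.14 and -0.17. In replicates 2 and 3 they thus departed further than the shortest class. These departures touch comparisons of short with long genes within the lists above. Their cause was not tested.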

How the data were processed

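Per the labels, poly(A) RNA was prepared from stable DLD1 populations with Tri-Reagent and sequenced. Whole-number counts per gene for 9 poly(A) libraries were deposited, of which the 3 sgC columns were described. Tools listed per the submitters' processing notes are HTSeq, DESeq2, SAMtools 1.9 and the aligner STAR 2.5.2b, with builds hg38 and GRCh38. Neither the annotation release nor the strand setting nor the handling of reads shared by near-identical genes is given in the sources used here.

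Counts were scaled with TMM factors over the 9 poly(A) libraries (edgeR 4.0.16, R 4.3.3) and summarised with pandas 2.3.3. Of 47021 identifiers, 44831 (95.3%) had a gene model in GENCODE 29, which gave lengths and shared exons. Values are mean ± SD over 3 libraries, and no test between groups was made. Counting intervals and the floor of 3 counts cover counting error only.

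The members and the 51 lists (1116 distinct genes) were chosen with earlier results of these data known. Named genes were the markers, the 20 highest genes, the 10 highest per kilobase, up to 6 highest and 6 lowest of each list, family members, and the most and least variable. Other genes, among them LGR5, HNF4A, MAGEA4 and the leading genes of enzyme steps, were named after their values were seen. GSTT1, BAGE and CCAT1 were not analysed here. Some members of the lists enter the counts and medians but are not reported here by name.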

Additional observations from a re-analysis of the deposited data

How the results depend on the processing

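No paired analysis was possible because a single group was described and no test between groups was made. The choice of scaling (library totals, TMM over the 3 sgC libraries, RLE size factors) gave 12449 to 12540 expressed genes. Leaving out each replicate gave 12535 to 12583. The rule asks for 1 CPM in every library used, so leaving a library out could not lower this count or the list counts. The threshold gave 13551 at 0.5 CPM, 10185 at 5 CPM and 11205 at 1 CPM per kb. Genes holding 50% of the counts numbered 712 with CPM per kb in place of 1076. The share of high-CpG promoters among expressed genes was 86.3% at 0.5 CPM, 89.5% at 5 CPM, 88.8% at 1 CPM per kb and 72.7% with a CpG ratio of at least 0.75, and 87.455% to 87.542% with each replicate left out, against 87.7%. The common biological coefficient of variation was 5.13% to 8.16% with each replicate left out, against 6.55%, and 8.16% was the value without replicate 1. Of 459 list counts recomputed, 436 stayed within 1.5 times and 23 moved, 11 of them at 5 CPM; 1 moved when a library was left out, the endothelial list, from 1 to 2 without replicate 2. The leading gene was kept in 18 of 24 enzyme steps and families with all-exon lengths. The cause of these changes was not tested beyond the settings named. Genes called near background rest on 0 to 5 counts over the 3 libraries, so differences among them were not detectable at this depth.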
